A study of Mus musculus with 8 samples.

Results

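The striated muscle sarcomere is described here through 42 genes chosen by symbol: myosin heavy and light chains, actin, troponins, tropomyosins, giant filament proteins, and proteins of the M-band and Z-disc. All 42 were found among the 49315 gene identifiers of the count tables, and all 42 passed the filter on low counts, as did 17179 genes in all. Poly(A)-selected RNA of whole mouse esophagus, labelled WT in all samples, was sequenced at day 14 from a group that drank 0.5% SDS (sodium dodecyl sulfate, a household detergent), in 3 libraries, and from a group on untreated water, in 5 libraries. The treatment protocol speaks of whole esophagus homogenates, whereas the extract protocol speaks of frozen cell pellets. Strain, sex and age are not stated in the labels used here. Neither do the labels tie each library to its own animal, so the p-values below describe the spread between libraries, which may be technical.

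A sarcomere is the repeating contractile unit of striated muscle. Thick filaments of myosin slide along thin filaments of actin, which carry tropomyosin and the troponin complex as the calcium switch. Z-discs anchor the thin filaments and M-bands hold the thick filaments in register. Slow and fast fibres use different genes for many of these parts: MYH7 marks slow fibres, and MYH2, MYH1 and MYH4 mark the fast types IIa, IIx and IIb. In the mouse the muscle coat of the esophagus is mostly striated along its length, unlike that of the gut below it.

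The genes of the 3 fast heavy chains lie side by side on chromosome 11 of build mm10, on the plus strand, with Myh2 at chr11:67171027-67197517, Myh1 at chr11:67200052-67224575 and Myh4 at chr11:67238029-67260446. Their start regions are shown because Myh4 and Myh2 had the widest ranges of the 42 genes over the untreated libraries, while Myh1 between them varied little (values below). Each window holds 250 bases before and 50 after the RefSeq start site (GRCm38.p6), 5′ to 3′. Capitals mark matches on either strand to the E-box CANNTG, the MCAT element CATTCC, the TATA box TATAAA, and the MEF2 and CArG motifs.
Myh2, chr11:67170777-67171076: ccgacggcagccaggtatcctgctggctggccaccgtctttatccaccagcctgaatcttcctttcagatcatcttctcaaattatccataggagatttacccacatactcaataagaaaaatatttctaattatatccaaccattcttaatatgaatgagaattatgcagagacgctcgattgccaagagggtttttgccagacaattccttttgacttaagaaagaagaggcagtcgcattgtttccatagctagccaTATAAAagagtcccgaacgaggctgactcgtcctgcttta
Myh1, chr11:67199852-67200151: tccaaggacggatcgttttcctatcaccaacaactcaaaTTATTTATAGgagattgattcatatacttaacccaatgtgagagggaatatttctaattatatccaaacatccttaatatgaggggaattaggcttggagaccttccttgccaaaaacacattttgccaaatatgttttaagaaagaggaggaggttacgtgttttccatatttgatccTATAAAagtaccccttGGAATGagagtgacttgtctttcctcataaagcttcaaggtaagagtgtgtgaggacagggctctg
Myh4, chr11:67237562-67237861: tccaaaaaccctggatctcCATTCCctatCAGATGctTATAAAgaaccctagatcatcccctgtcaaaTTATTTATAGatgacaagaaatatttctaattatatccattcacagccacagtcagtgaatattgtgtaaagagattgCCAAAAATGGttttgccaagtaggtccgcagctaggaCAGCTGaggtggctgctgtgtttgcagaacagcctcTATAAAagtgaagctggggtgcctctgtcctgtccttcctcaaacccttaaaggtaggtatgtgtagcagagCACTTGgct
A TATA box lay 32 bases before the start site in Myh1 and 31 bases before it in Myh4, and began 10 bases after the RefSeq start in Myh2. The RefSeq start of Myh4 differed by 217 bases from the first base counted for that gene in the deposited tables, that of Myh1 by 50 and that of Myh2 by 0. Myh1 and Myh4 share a MEF2 match, 211 and 182 bases before the start, which overlaps a TATA match on the other strand. Only the Myh4 window of these 3 held E-boxes (3 of them) and a CArG match. Over 32851 promoter windows of this length an E-box was present in 72.3%, MCAT in 14.7%, TATA in 13.6%, MEF2 in 3.19% and CArG in 1.63%. RefSeq windows matched 31 of the 42 genes, with 38 windows, of which 78.9% held an E-box, 34.2% MCAT, 18.4% TATA, 15.8% MEF2 and 15.8% CArG. These matches describe letters and not bound sites.

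Sarcomere genes took between 3.95% and 6.20% of all counts in the controls, and 3.93%, 3.35% and 2.01% in SDS libraries 1, 2 and 3. Total counts per library lay between 22033866 and 29802362. Levels are given as CPM, the counts scaled to a common library size after TMM, a method that assumes most genes do not change. Where genes are compared with each other, the level is CPM per kilobase of the exon length in the deposited tables. Marker genes of other tissue layers differed between libraries (values below), but the make-up of the tissue was not measured. In such whole-organ RNA fewer muscle cells and less RNA per muscle cell cannot be told apart.

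In untreated esophagus the skeletal alpha-actin gene Acta1 stood highest, at 7256 ± 973 CPM per kilobase (SD, n = 5). Next in order came the fast troponins Tnnt3 at 2607 ± 435 and Tnnc2 at 2443 ± 431 CPM per kilobase. Their spreads between libraries overlap, but within each of the 8 libraries Tnnt3 was the higher. The fast regulatory light chain Mylpf followed at 1657 ± 298, the fast troponin I gene Tnni2 at 1468 ± 246 and the titin cap gene Tcap at 1434 ± 302 CPM per kilobase. The spreads of these 3 overlap, though Mylpf exceeded Tnni2 in each control. The same 6 genes led in the SDS libraries, in the same order, from 4216 ± 1963 (SD, n = 3) for Acta1 to 683 ± 274 CPM per kilobase for Tcap. At the bottom were 4 slow-fibre genes: troponin I Tnni1 at 3.14 ± 2.89, troponin C Tnnc1 at 0.988 ± 0.933, heavy chain Myh7 at 0.394 ± 0.518 and regulatory light chain Myl2 at 0.106 ± 0.0743 CPM per kilobase. Below Acta1, the top of the scale on this exon length thus held fast-fibre genes and Tcap, and its bottom held slow-fibre genes. The order of neighbouring genes depends on the length used. Beta-tropomyosin Tpm2 came next after Tcap, at 1187 ± 172 CPM per kilobase with 2909 exon bases. With the length of its longest GENCODE M21 transcript, which is shorter, Tpm2 would stand above Tcap.

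**Figure D1:**
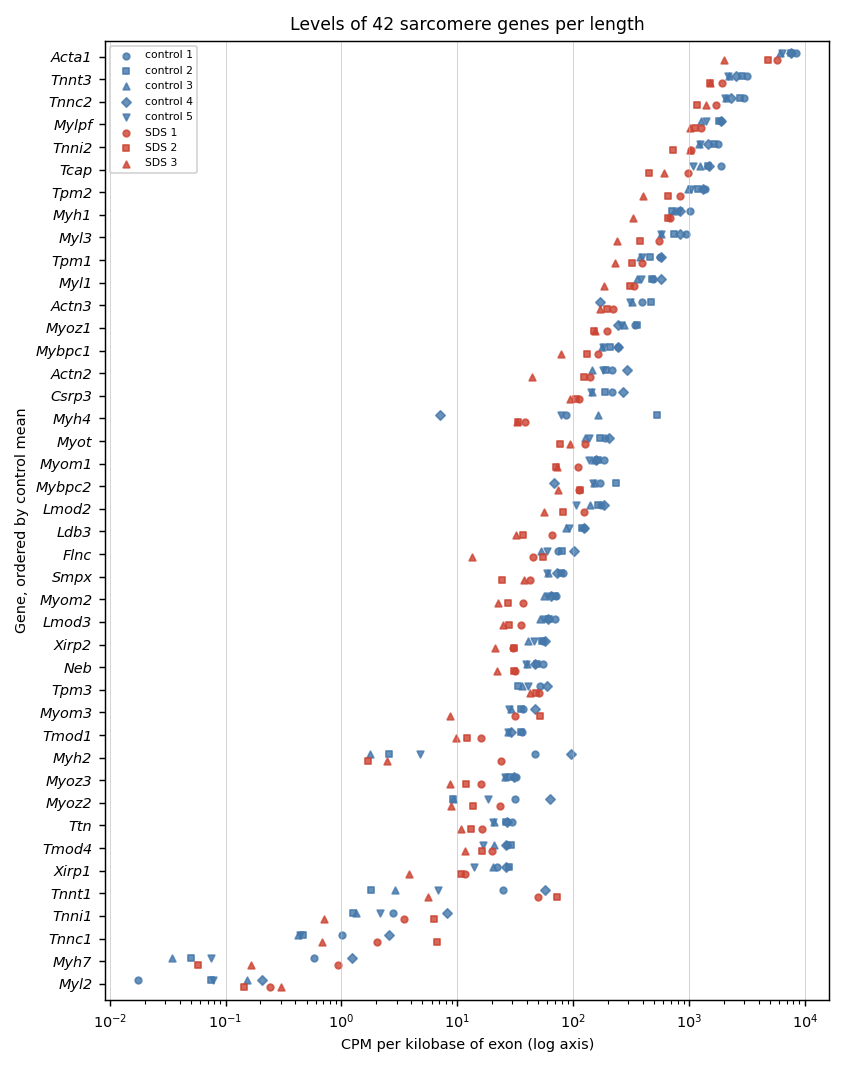
Level of each of the 42 genes in each library, in CPM per kilobase of exon on a log axis, with control libraries in blue, SDS libraries in red and marker shapes for library numbers. Acta1 leads at 7256 CPM per kilobase in controls, and Myh4, Myh2, Tnnt1 and Myh7 spread most widely within the controls.

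Not every gene known from slow fibres was low. The essential light chain Myl3, a slow and cardiac isoform, stood at 734 ± 163 CPM per kilobase in controls against 456 ± 86.3 for its fast partner Myl1, and exceeded it in all 8 libraries. The slow myosin-binding protein Mybpc1 stood at 211 ± 32.2 CPM per kilobase and the fast Mybpc2 at 155 ± 59.5, overlapping ranges. Myl2, the usual partner of Myl3 in slow fibres, had only 28 counts over the 5 controls and 34 over the 3 SDS libraries. Of the heart markers, the 3 defining ones tested were low beside Myl3: Myh6 had between 1.45 and 2.42 CPM in controls, Nppa at most 0.686 CPM and Tnni3 at most 0.722 CPM, whereas Myl3 had 1165 to 1935 CPM. In the same list Tnnt2 had 23.2 to 84.2 CPM in controls, and Actc1, which skeletal muscle also makes, had 706 to 907 CPM.

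Among the heavy chains, Myh1 and the perinatal isoform Myh8, which the list of 42 does not hold, made up most of the message. Per kilobase Myh1 stood at 828 ± 118 and Myh8 at 772 ± 95.9 CPM in controls. Out of the 8 sarcomeric heavy chain genes, Myh1 took 33.5% to 51.6% of counts per kilobase in controls and 51.8% to 61.6% in SDS libraries. Myh8 took 41.2% to 44.2% in controls and 35.1% to 42.5% in SDS. Both shares depend on the length used. With the longest GENCODE M21 transcript (6149 bases in place of the 11772 exon bases deposited for Myh8) Myh8 took 56.6% to 59.4% in controls and 49.8% to 57.6% in SDS. Myh1 then took 25.1% to 38.1% in controls and 38.3% to 47.7% in SDS, so that Myh8 was ahead of Myh1 in each library. Copies are similar enough to blur these shares, since 26.7% of the 50-base windows of the Myh1 transcript and 26.9% of those of Myh2 occur in another gene, mostly each other, and the handling of reads with several matches is not given in the sources used here. Myh1 overlaps the antisense gene Myhas over 515 exon bases, and the strand setting is not given either.

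**Figure D2:**
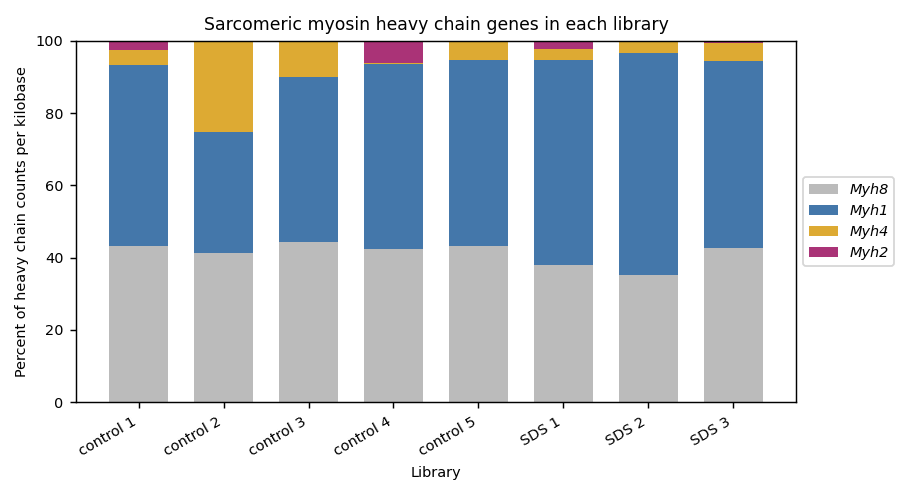
Share of each myosin heavy chain gene in the summed counts per kilobase of 8 heavy chain genes, by library (Myh7, Myh3, Myh13 and Myh6 are too low to show). Myh4 takes 25.2% in control library 2 and 0.431% in control library 4, and Myh2 takes 5.82% in control library 4.

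Type IIb and type IIa heavy chains differed widely between untreated libraries. Myh4 (IIb) measured 521, 3223, 985, 42.4 and 473 CPM in control libraries 1 to 5, a 75.9-fold range, and 231, 199 and 196 CPM in SDS libraries 1 to 3. Myh2 (IIa) measured 336, 18.5, 12.7, 680 and 34.4 CPM in the controls, a 53.7-fold range, and 171, 12.1 and 17.8 CPM in the SDS libraries. The control that was lowest for Myh4, library 4, was highest for Myh2, and control libraries 2 and 3, highest for Myh4, were lowest for Myh2. Myh1 (IIx) varied only 1.43-fold in the controls: 6452, 4523, 4742, 5322 and 5267 CPM, against 4370, 4195 and 2086 CPM in SDS. Each SDS library thus lay below each control for Myh1, while for Myh4 and Myh2 the groups overlapped. Myh4 and Myh2 did not pass (log2 fold change -2.33 ± 1.08 and -1.69 ± 1.502, SE), in the edgeR quasi-likelihood test, and neither did Myh1 (-0.57 ± 0.27).

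Of the 9 slow-fibre genes, 5 are given here by library beside Myh2. The slow heavy chain Myh7 measured 5.02, 0.433, 0.295, 10.5 and 0.648 CPM in control libraries 1 to 5 and 8.02, 0.492 and 1.42 CPM in SDS libraries 1 to 3. Control libraries 1 and 4 and SDS library 1 were the 3 highest for Myh7, as they were for Myh2. The slow calsarcin Myoz2, a Z-disc protein that binds calcineurin, was also highest there, at 108, 215 and 80.2 CPM, against 30.4 to 63.5 CPM in the other libraries. The slow troponin T gene Tnnt1 measured 54.6, 4.00, 6.39, 125 and 15.1 CPM in the controls and 110, 162 and 12.2 CPM in SDS. Here SDS library 2 was the highest of all 8 although its Myh2 and Myh7 were low. Tnnc1 measured 1.06, 0.481, 0.443, 2.70 and 0.458 CPM in the controls and 2.12, 6.99 and 0.709 CPM in SDS, again highest in SDS library 2. Tnni1 measured 10.04, 4.53, 4.76, 29.4 and 7.70 CPM in controls and 12.6, 22.8 and 2.54 CPM in SDS. SDS library 2 came after control library 4 in Tnni1, and SDS library 3 was the lowest. The slow gene Tpm3 was highest in control libraries 1 and 4 and SDS library 1, at 315, 359 and 308 CPM. Myl3 and Mybpc1 did not share this order across the groups, since SDS library 1 lay below every control for both (1130 and 745 CPM). Within the groups they did: control libraries 1 and 4 were the highest controls, and SDS library 1 the highest SDS library. That within-group order is not particular to slow genes. Acta1 and, of the fast class, Myh1, Myl1 and Mylpf had it as well as Myh2, while the other fast genes did not. The slow gene Myl2 did not share the order, being lowest in control library 1 and highest in SDS library 3. None of Myh7, Myoz2, Tnnt1, Tnnc1 and Tnni1 passed (log2 fold changes -0.04, -0.78, 1.20, 1.65 and 0.16), and their groups overlap.

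**Figure D3:**
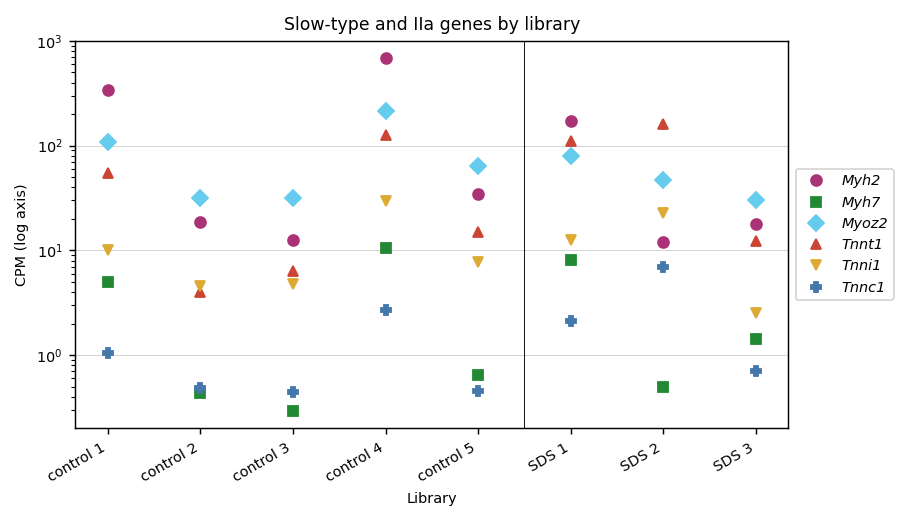
CPM on a log axis of the IIa heavy chain Myh2 and 5 slow-type genes in each of the 8 libraries, controls left of the line and SDS right of it. Myh2 and Myh7 are high in control libraries 1 and 4 and in SDS library 1, and Tnnt1 (162 CPM) and Tnnc1 (6.99 CPM) peak in SDS library 2.

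Smooth muscle and adipocyte markers were highest in the same libraries as Myh2, Myh7, Myoz2 and Tpm3. They did not follow Tnnt1 and Tnnc1, which peaked in SDS library 2, where both marker sums were lowest (1045 and 1079 CPM). Smooth muscle markers summed to 2972 and 6810 CPM in control libraries 1 and 4 and to 2853 CPM in SDS library 1, and to between 1045 and 2189 CPM in the other 5. All 11 of these markers were tested, and of the 4 defining ones (Acta2, Actg2, Myh11, Tagln) none fell under the 40.6 CPM of Tagln in control library 2. Adipocyte markers summed to 3369, 9936 and 3412 CPM in the same 3 libraries and to 1079 to 2284 CPM elsewhere, with all 11 tested. Car3, which is also on the list of slow and oxidative fibre genes, gave 1833, 3994 and 1660 CPM of these sums, and 690 to 1787 CPM elsewhere. The defining marker Plin1 ranged from 0.960 to 371.8 CPM in controls. In SDS library 2 the fibroblast markers summed to 6803 CPM, against 1405 to 3188 CPM in the other libraries. The part of these components in the slow and IIa levels was not tested.

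Within each library, the slow or accessory isoform was set against its fast partner per kilobase, a ratio in which a change common to both genes cancels. In controls the fast gene exceeded the slow one 295-fold for troponin T, 603-fold for troponin I, 3242-fold for troponin C and 14.8-fold for calsarcin (geometric means), and Tpm1 exceeded Tpm3 10.8-fold. Of 12 ratios tested between groups by a two-sided exact permutation test, 0 passed after Benjamini-Hochberg adjustment and 2 had an unadjusted p of 0.0357, the smallest that 3 libraries against 5 allow. The alpha-tropomyosin ratio of Tpm3 to Tpm1 was the tighter of these 2: its log2 values were -3.44, -3.80, -3.40, -3.27 and -3.26 in the controls and -2.95, -2.76 and -2.42 in SDS, a difference of 0.72 with no overlap (exact permutation, adjusted p = 0.214). Both tropomyosin genes also serve other cell types than striated muscle, and 17.0% of the windows of Tpm3 occur in Tpm3-rs7. The other was Myl2 to Mylpf, with a difference of 1.98, which rests on 1 to 14 counts of Myl2 in a library.

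Troponin C had a log2 ratio of -11.66 ± 1.11 (SD, n = 5) in controls and -9.39 ± 1.80 (SD, n = 3) in SDS, a difference of 2.27 with overlap (exact permutation p = 0.0714, adjusted 0.286). Troponin T went from -8.21 ± 2.04 to -5.91 ± 1.94, a difference of 2.29 (exact permutation p = 0.143, adjusted 0.429). For troponin I the difference was 0.71, for calsarcin 0.33 and for slow against fast heavy chains 1.24. The ratios of Myh2 to Myh1 (-0.47), Myh4 to Myh1 (-0.65), Myl3 to Myl1 (-0.22), Mybpc1 to Mybpc2 (-0.27) and the general to the fast-fibre alpha-actinin, Actn2 to Actn3 (-0.43), were lower on average in SDS. Each of these 8 had an unadjusted exact permutation p of at least 0.179. Since 0.0357 is the smallest p that 8 libraries allow, no single ratio could pass adjustment over the 12, and the absence of a call does not show equal fibre make-up.

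**Figure D4:**
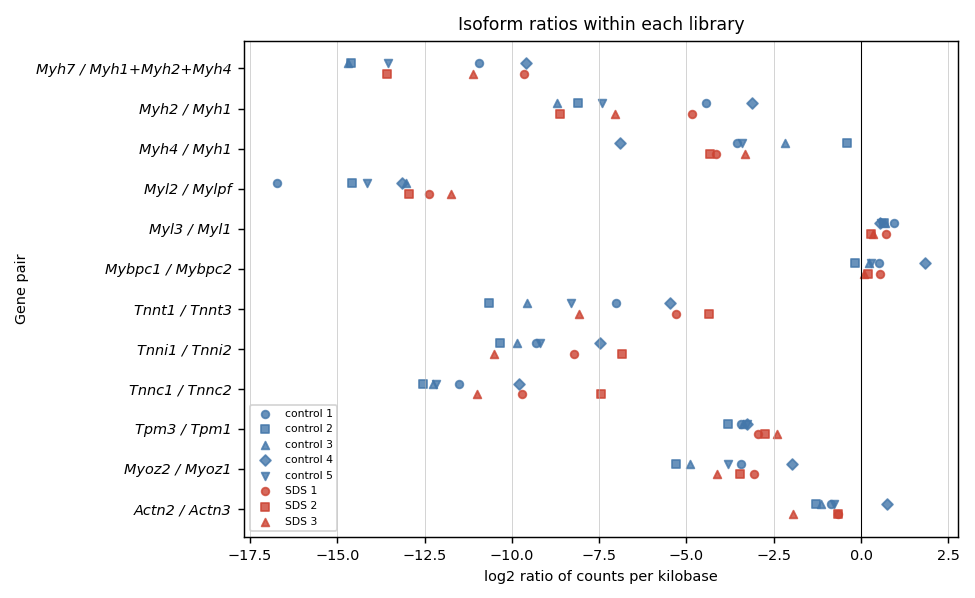
Log2 ratio of counts per kilobase of 12 isoform pairs within each library, controls in blue and SDS in red. The 2 groups are apart only for Tpm3 to Tpm1 and Myl2 to Mylpf, and the troponin T and heavy chain ratios range over more than 5 log2 units within the controls.

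Between the groups, the levels of sarcomere genes were lower in SDS for most of the list. Of the 42 genes, 4 fell and 0 rose at an adjusted p of 0.05 over all genes tested (edgeR quasi-likelihood test, Benjamini-Hochberg adjustment), where 1.05% of all tested genes were called, 0.425% lower and 0.623% higher. At an unadjusted p under 0.05, 29 were lower (8.53% of all tested genes were) and 0 higher. At the adjusted threshold 0 rose with DESeq2 and limma-voom too, and at an unadjusted p under 0.05 DESeq2 had 1 higher and limma-voom 0. The 3 SDS libraries lay below all 5 controls for 25 of the 42 genes (6.89% of all tested genes) and above them for 0 (6.49% of all tested genes). A negative log2 fold change was found for 37 of the 42, against 50.7% of all tested genes. The median log2 fold change was -0.78 over the 42 genes and -0.00473 over all genes tested. The members' median deviation from the control mean was -0.45, -0.80 and -1.20 in SDS libraries 1, 2 and 3, and between -0.24 and 0.22 in the controls. Without SDS library 3, the lowest, the median log2 fold change was -0.65 and 7 genes fell, in a fit that called 6.92% of all genes tested. The count of 4 became 0 without control library 1, 2, 3 or 5 or without SDS library 2. These fits called only 4, 7, 18, 10 and 4 of all genes tested (0.0228% to 0.105%), so their 0 is not particular to sarcomere genes. In them 24 to 30 of the 42 were lower at an unadjusted p under 0.05 in edgeR, where 2243 to 3202 of all genes passed in either direction. Without control library 4 the count was 3, Myoz3 being lost, and 0.718% of all genes were called.

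**Figure D5:**
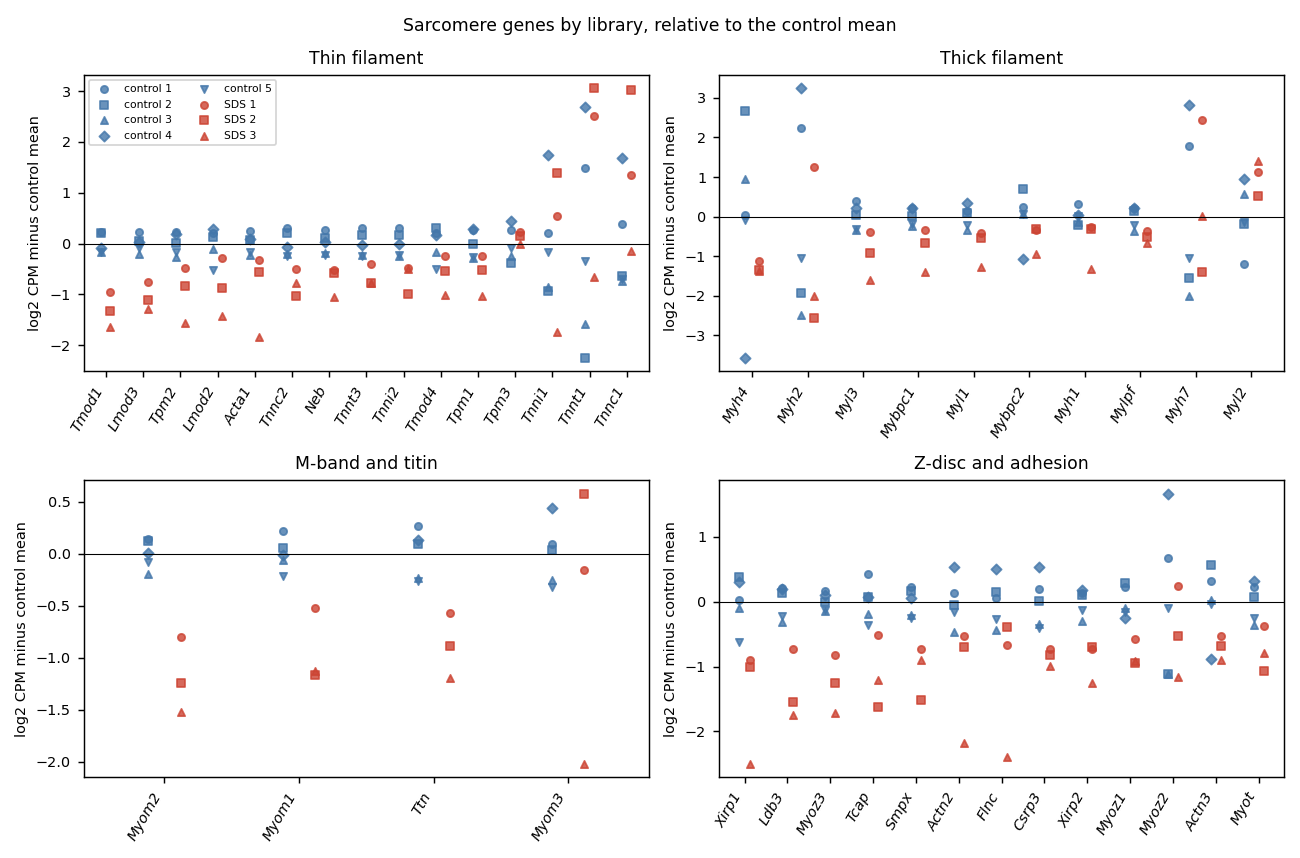
Log2 CPM of each gene in each library minus the mean of the 5 controls, in 4 panels by place in the sarcomere, with genes ordered by fold change. Tmod1, Lmod3, Myom2 and Myoz3 show SDS libraries clear of the controls, Tnnt1, Tnnc1, Myh2 and Myh7 show wide spread in both groups, and Myh4 shows it in the controls.

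The 4 genes that fell encode a cap of thin filaments, a nucleator of actin, an M-band crosslinker and a Z-disc adaptor. Tropomodulin Tmod1, which caps the pointed end of actin filaments, measured 142, 141, 109, 114 and 108 CPM in the controls and 62.8, 48.3 and 38.9 CPM in SDS. The highest SDS library lay well under the lowest control, and the log2 fold change was -1.30 ± 0.18 (SE; edgeR adjusted p = 0.0303). Tmod1 (chr4:46038935-46116032) shares 1287 exon bases with Tstd2 on the other strand, so part of its counts may belong to that gene. Leiomodin Lmod3, which nucleates thin filaments and is linked to nemaline myopathy, measured 155, 137, 116, 135 and 125 CPM in the controls and 78.9, 61.7 and 54.6 CPM in SDS. No library of one group reached into the other (log2 -1.04 ± 0.15, SE, edgeR adjusted p = 0.0309).

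Myomesin 2 (Myom2), an M-band crosslinker of myosin typical of fast fibres but counted below in neither fibre class, measured 629, 622, 501, 576 and 540 CPM in the controls and 329, 241 and 198 CPM in SDS. Its log2 fold change was -1.16 ± 0.19 (SE, edgeR adjusted p = 0.0355), and every SDS library was under every control. Myoz3, the calsarcin of fast fibres beside Myoz1, measured 27.9, 24.7, 22.5, 26.7 and 22.6 CPM in the controls and 13.9, 10.3 and 7.47 CPM in SDS (log2 -1.23 ± 0.20, SE, edgeR adjusted p = 0.0355), also without overlap. The controls of these 4 genes had SDs of 0.14 to 0.20 on the log2 scale. In all 17 alternative settings their log2 fold changes were negative, Tmod1, Lmod3 and Myom2 being called in 11 of them and Myoz3 in 10.

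In the thin filament, 2 of 15 genes fell (Tmod1 and Lmod3) and 13 did not pass, with a median log2 fold change of -0.65. Acta1 measured 13045, 11606, 9451, 11813 and 9807 CPM in the controls and 8879, 7456 and 3093 CPM in SDS, without overlap but with SDS library 3 far under the others (log2 -0.78 ± 0.33, SE; adjusted p = 0.252). The fast troponins were close to each other: Tnnt3 at -0.65 ± 0.20, Tnni2 at -0.65 ± 0.20 and Tnnc2 at -0.78 ± 0.20 (log2, SE), each with SDS libraries below all controls. Tnnt3 measured 5052, 4587, 3515, 4020 and 3459 CPM in the controls and 3081, 2387 and 2395 CPM in SDS. Tnni2 measured 2669, 2458, 1824, 2170 and 1867 CPM in the controls and 1560, 1096 and 1536 CPM in SDS. Tnnc2 measured 2400, 2229, 1667, 1849 and 1627 CPM in the controls and 1360, 940 and 1124 CPM in SDS, and it overlaps the mitotic gene Ube2c over 592 exon bases on the other strand. SDS library 3 was not the lowest for Tnnt3, Tnni2 and Tnnc2, unlike for Acta1. Beta-tropomyosin Tpm2 stood at -0.91 ± 0.26 and Tpm1 at -0.59 ± 0.24, while Tpm3 stood at 0.09 ± 0.20 (log2, SE), with 269 ± 65.8 CPM in controls (SD, n = 5) and 287 ± 24.3 CPM in SDS (SD, n = 3). Nebulin (Neb), the ruler of the thin filament, stood at -0.71 ± 0.19, Lmod2 at -0.82 ± 0.28 and the muscle tropomodulin Tmod4 at -0.60 ± 0.22 (log2, SE).

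In the thick filament 0 of 10 genes passed in the edgeR test, 4 were lower at an unadjusted p under 0.05, and with DESeq2, which called 9.31% of all genes tested, Myl1, Myl3, Mylpf and Mybpc1 were called lower. The median log2 fold change was -0.67. Mylpf measured 2021, 1917, 1340, 2017 and 1506 CPM in the controls and 1351, 1208 and 1087 CPM in SDS, with SDS library 1 just above the lowest control. Myl3 measured 1935, 1522, 1165, 1701 and 1180 CPM in the controls and 1130, 777 and 486 CPM in SDS (log2 -0.91 ± 0.30, SE), and its partner Myl1 stood at -0.72 ± 0.24. Mybpc1 stood at -0.75 ± 0.25 and Mybpc2 at -0.62 ± 0.35 (log2, SE). Mybpc2 overlapped between groups because control library 4 had 246 CPM where the other controls had 541 to 847. Actn3 showed the same low library, with 497 CPM in control library 4 and 895 to 1363 CPM in the other controls.

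Titin (Ttn), the spring that spans from Z-disc to M-band, measured 3448, 3055, 2436, 3135 and 2382 CPM in the controls and 1925, 1550 and 1252 CPM in SDS (log2 -0.88 ± 0.21, SE; adjusted p = 0.0809). Of the 4 genes of titin and the M-band, 1 fell (Myom2). Myom1 stood at -0.91 ± 0.19 with an adjusted p of 0.0596, also with every SDS library under every control. Myom3, the myomesin of slow and intermediate fibres, went another way: it measured 224, 216, 177, 285 and 169 CPM in the controls and 189, 314 and 51.8 CPM in SDS. SDS library 2 was the highest and SDS library 3 the lowest of all 8 libraries for Myom3, and its log2 fold change of -0.21 ± 0.47 turned to 0.24 without SDS library 3.

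All 13 Z-disc and adhesion genes had a negative log2 fold change, with a median of -0.96. Myoz3 fell, and the other 12 did not pass; for 10 of the 13 the SDS libraries lay below all controls. Ldb3, which ties alpha-actinin to signalling proteins, measured 753, 713, 524, 744 and 556 CPM in the controls and 394, 223 and 193 CPM in SDS (log2 -1.29 ± 0.27, SE; adjusted p = 0.0582). Smpx, a small protein of stretched muscle, stood at -1.02 ± 0.20 with an adjusted p of 0.0538, Xirp2 at -0.88 ± 0.19 with 0.0596 and Myoz1 at -0.82 ± 0.17 with 0.0597. Tcap measured 1791, 1396, 1173, 1401 and 1036 CPM in the controls and 936, 432 and 576 CPM in SDS, without overlap (log2 -1.07 ± 0.28, SE). The actin crosslinker Flnc, the alpha-actinin gene Actn2 and the adhesion gene Xirp1 were lowest in SDS library 3, at 127, 163 and 22.2 CPM, against 421 and 515, 513 and 456, and 67.6 and 62.4 CPM in SDS libraries 1 and 2. The remaining ones, Csrp3 (-0.89), Myot (-0.74), Actn3 (-0.77) and Myoz2 (-0.78), did not pass.

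By fibre class, the 22 genes assigned to neither the slow nor the fast class had a median log2 fold change of -0.91, with 4 that fell and 17 without overlap below the controls. Myom2, Myoz3 and Myom3, described above by the fibres they are typical of, were counted among these 22. The 11 genes assigned to the fast class had a median of -0.72, with 0 passing, 7 lower at an unadjusted p under 0.05 and 6 without overlap. The 9 genes assigned to the slow class had a median of 0.09, with 0 passing and 2 lower at an unadjusted p under 0.05. The 2 without overlap were Myl3 (-0.91) and Mybpc1 (-0.75). That median is the value of Tpm3, which also serves other cell types. Among the rest, Myl2, Tnnc1 and Myh7 had only 28, 145 and 492 counts over the controls, so the median does not show that slow-fibre message was spared. The log2 fold changes of the slow class ran from -0.91 to 1.65, and those of the fast class from -2.33 to -0.53. In the median of the slow class, control library 4 stood at 1.66 and control library 3 at -0.74 above or below the control mean, a wider spread than the 0.53, 0.15 and -0.66 of the SDS libraries.

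Markers of the squamous epithelium, the lining of the esophagus, had the largest sum of the cell type lists. Squamous epithelium markers summed to between 43591 and 141556 CPM in the controls and to 97498, 100105 and 156880 CPM in SDS libraries 1, 2 and 3. Control library 2, with 119074 CPM of epithelial markers, exceeded SDS libraries 1 and 2, and its sarcomere genes had a median deviation of 0.07, against -0.45 and -0.80 in these 2 libraries. Control libraries 3 and 5, with 141556 and 106172 CPM, exceeded them too and had medians of -0.24 and -0.22. These sums are mostly Krt4 and Krt13 (54374 and 53020 CPM in control library 2), and other markers on the list differed. Krt5 measured 3383, 3216 and 2913 CPM in control libraries 2, 3 and 5, below the 3843 and 3632 CPM of SDS libraries 1 and 2. Dsg3 was also lower in these controls, whereas Krt15 was higher. Krt14 measured 325 to 822 CPM in controls and 5036, 4008 and 1094 CPM in SDS libraries 1, 2 and 3. Krt6a measured 43.6 to 108 CPM in controls and 3567, 2819 and 51.1 CPM in SDS, so SDS library 3 lay within the controls for Krt6a. The sums thus do not settle which library held more epithelium. SDS library 3 had the highest sum of epithelial markers and the least sarcomere message of all 8. The part of epithelial RNA in the sarcomere levels was not tested further. SDS library 3 was also the one whose gene levels leaned on GC content, with a rank correlation of -0.20 across 17143 genes, against -0.06 to 0.14 in the other libraries. The 21 sarcomere genes of lower GC and the 21 of higher GC had median deviations of -1.19 and -1.21 there.

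Other muscle genes outside the 42 lay in the same range. Of 43 tested genes of further sarcomere, Z-disc and M-band proteins, 1 fell, the muscle methyltransferase Smyd1 (log2 -0.98 ± 0.18, SE, edgeR adjusted p = 0.0470), and 0 rose, with a median log2 fold change of -0.69 and 24 without overlap below the controls. Of 15 fast-fibre genes outside the sarcomere 1 fell, the transcription factor Tbx15 (-1.17 ± 0.17, edgeR adjusted p = 0.0309), with a median of -0.96. Of 15 slow and oxidative genes outside the sarcomere 0 passed in the edgeR test (5 lower at an unadjusted p under 0.05), with a median of -0.63. Of 15 general skeletal muscle markers 0 passed (10 lower at an unadjusted p under 0.05), with a median of -0.69, and 11 lay below all controls. Myh8 measured 8142 to 10323 CPM in the controls and 5425, 4431 and 3174 CPM in SDS, with no overlap and an adjusted p of 0.0596.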

How the data were processed

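Each of the 8 deposited tables holds the raw counts of 1 library per gene, summed over exons, with exon coordinates and lengths. Tools named in the submitters' processing notes were bcl2fastq, FastQC, STAR (2.6.1c) and Subread, with build mm10. Annotation release, strand setting and the treatment of multiply matching reads: not given in the sources used here. Exon length in bases, per the file headers, was the divisor for values per kilobase. Symbols matched 48970 of 49315 identifiers, and 44823 had the same position in GENCODE M21.

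The deposited counts were fitted with edgeR 4.0.16 (R 4.3.3): filterByExpr (minimum count 10, total 15), TMM, glmQLFit with robust estimation, glmQLFTest, and Benjamini-Hochberg adjustment over 17179 genes with a threshold of 0.05. SE was computed from the F statistic (absolute log2 fold change over its square root). The 12 isoform ratios were compared by two-sided exact permutation of the libraries. DESeq2 1.42.0, limma 3.58.1 (voom), other scalings and filters, a replicate block and left-out libraries were alternatives; GC offsets were added after seeing the data. The procedure was tested on simulated counts. Within groups, chi-square per degree of freedom was at least 22.1, so no library repeats another. The members, isoform pairs and lists were chosen with earlier results of these data known. Values in every library were to be given for the isoform pairs, for members that passed and for the 6 highest per kilobase; outside the list, up to 4 called genes and the first 4 markers of each list were to be named. Ttn, Myom3, Ldb3, Flnc, Xirp1, Myh8, Actc1, Tnnt2 and Myl7 were chosen for such values after theirs were seen.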

Additional observations from a re-analysis of the deposited data

Results flagged for a closer look

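In 1 of 54 checks of a single control standing apart (42 gene levels and 12 isoform ratios over 5 controls), the gap of the extreme library exceeded the 95% limit of Dixon's ratio (0.71). This was the Actn2 to Actn3 ratio, where control library 4 lay highest: the log2 ratios were -0.86, -1.28, -1.16, 0.75 and -0.78, and the gap took 0.755 of the range. Chance flags about 1 in 20 such groups.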

How the results depend on the processing

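Against 4 sarcomere genes called lower by edgeR, DESeq2 called 24, the GC offsets 8 and the replicate block 0, and leaving out single libraries gave 0 to 7. Over all genes, against 180 calls, DESeq2 gave 1599, the GC offsets 352, the block 0 and left-out libraries 4 to 1222. The cause of these differences was not tested. RLE, upper quartile and TMM without muscle genes, a filter of 1 CPM and limma-voom each called 4 sarcomere genes, and no filter called 6. The members' median log2 fold change lay between -0.98 and -0.65 over all 17 settings. No isoform ratio passed under the settings run for the ratios, and with a library left out none could reach 0.05.

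Directions turned for a few members that did not pass. The log2 fold change of Myh7 was 0.26 with limma-voom, 1.00 with the replicate block and -1.84 to 1.02 with a library left out. Leaving out single libraries gave -0.83 to 0.24 for Myom3 and -0.58 to 0.92 for Tnni1. For the ratios, left-out libraries gave differences of -0.018 to 0.81 for calsarcin, -1.46 to 0.42 for IIa to IIx, -1.55 to 0.071 for IIb to IIx, -0.44 to 0.058 for myosin-binding protein C and -0.12 to 1.70 for troponin I.

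The labels number libraries 1 to 3 in both groups but do not say that the numbers pair animals, so they were not taken as pairs. Same-numbered libraries correlated at 0.31, -0.006 and 0.31 over genes, which does not decide the matter. SDS library 1 correlated best with control library 4 (0.51), and SDS library 3 best with control library 3. With the replicate block edgeR called no gene, 32 members being lower and 1 higher at an unadjusted p under 0.05, and the values that turned sign were 0.032 for Myoz2, 0.0079 for the alpha-actinin ratio, 0.25 for IIa to IIx and 0.080 for myosin-binding protein C, beside Myh7.

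Counts limit the lowest genes most: Myl2 had 1 to 14 counts in a library, and 3 counts correspond to 0.101 to 0.144 CPM.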

Other observations

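Cardiac and developmental isoforms were measured as well. The cardiac alpha-actin gene Actc1, which skeletal muscle also makes, had 706 to 907 CPM in controls and 585, 548 and 377 CPM in SDS libraries 1 to 3 (log2 -0.67 ± 0.18, SE; edgeR adjusted p = 0.101). Of 11 tested developmental, extraocular and cardiac isoforms 0 passed in the edgeR test, with 4 lower and 1 higher at an unadjusted p under 0.05 and a median log2 fold change of -0.78. Of 9 tested heart markers 0 passed, with a median of 0.14; Myh6, Myl4, Myl7, Tnnt2, Tnni3, Actc1 and Mybpc3 are on both lists, so the lists are not independent. The atrial light chain Myl7 had 6.52 to 11.3 CPM in controls and 6.64, 9.70 and 18.8 CPM in SDS.

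Genes tied to the embryonic origin of head and neck muscle summed to 133 to 178 CPM in controls and 133, 121 and 65.4 CPM in SDS, with 0 of 5 passing in edgeR (2 lower at an unadjusted p under 0.05) and a median of -0.64. Of the 5 genes listed for limb and diaphragm muscle, 2 passed the filter on low counts, Lbx1 and Meox2, and neither was called (median -0.78). Smooth muscle markers gave 0 of 11 called (2 lower at an unadjusted p under 0.05, median -0.72), adipocyte markers 0 of 11 (median -1.11), fibroblast markers 0 of 8 (1 higher at an unadjusted p under 0.05, median 0.30), and squamous epithelium markers 1 of 12, Krt14, higher (median 0.34).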
